A study of Mus musculus with 8 samples.

Results

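Slc40a1, the gene that encodes ferroportin, and 9 further genes of cellular iron handling (Heph, Tfrc, Trf, Slc11a2, Fth1, Ftl1, Hmox1, Aco1 and Ireb2) were followed across the RNA-seq libraries of E14 ESCs, a mouse embryonic stem cell line. The 10 genes were taken by symbol from the 55335 genes of the count table, all of them were present, and all 10 were among the 16504 genes that passed the filter on low counts. Slc40a1 was chosen by its normalized counts in the Sox2-KD libraries, which were already known, so that its values in comparisons with Sox2-KD are given here as a description without a test. The other 9 were added for their place in the same pathway. All cells were infected with the GV248 lentivirus and selected with puromycin, and they carried either a scramble control or shRNAs directed at Sox2, hnRNPK or Cdk9, with 2 libraries per group from biological duplicates. The cells were grown with leukemia inhibitory factor, CHIR99021 and PD0325901. The pair of shRNAs designed for each target is not resolved by library in the labels, and protein levels were not analysed here.

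Iron leaves a cell through ferroportin, the membrane exporter, after which a ferroxidase such as hephaestin (Heph) oxidizes it for binding to transferrin. Iron-loaded transferrin (Trf) enters through the transferrin receptor (Tfrc), the transporter DMT1 (Slc11a2) moves iron out of the endosome, ferritin chains (Fth1, Ftl1) form the storage shell, and heme oxygenase (Hmox1) frees iron from heme. The iron regulatory proteins encoded by Aco1 and Ireb2 bind a hairpin, the iron responsive element (IRE), when iron is scarce. Binding near the 5′ end of the Slc40a1 and ferritin mRNAs represses translation, and binding in the 3′ UTR of Tfrc mRNA protects it from decay.

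The hairpins are printed because they tie the exporter, the storage genes and the receptor to a common regulator, whereas the counts measure only mRNA abundance per gene. Transcripts of protein-coding genes in GENCODE vM21 (GRCm38) were searched on the transcript strand for the loop CAGTGN (N is any base) between 5 bases and 5 bases that can all pair with each other, G with T included, and a C before the first 5. Each line is 30 bases of the mRNA strand, 5′ to 3′, with the loop in capitals.
Slc40a1, 5′ UTR, chr1:45925465-45925494, − strand: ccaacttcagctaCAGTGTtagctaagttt
Fth1, 5′ UTR, chr19:9982731-9982760, + strand: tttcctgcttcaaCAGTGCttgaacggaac
Ftl1, 5′ UTR, chr7:45459779-45459808, − strand: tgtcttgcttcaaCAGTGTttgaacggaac
Tfrc, 3′ UTR, chr16:32631218-32631247, + strand: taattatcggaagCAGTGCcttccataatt
Tfrc, 3′ UTR, chr16:32631597-32631626, + strand: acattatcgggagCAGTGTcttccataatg
Tfrc, 3′ UTR, chr16:32631662-32631691, + strand: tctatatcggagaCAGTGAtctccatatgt
Tfrc, 3′ UTR, chr16:32631709-32631738, + strand: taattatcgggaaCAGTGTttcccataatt

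The pattern occurred in 4 of the 10 genes, and Tfrc held 4 copies in its 3′ UTR. Across all 21877 protein-coding genes searched, 31 (0.14%) held it in a 5′ UTR and 129 (0.59%) in a 3′ UTR. It was carried by 1 of 4 coding transcripts of Slc40a1, 4 of 5 of Fth1, 1 of 2 of Ftl1 and 1 of 3 of Tfrc. Because the deposited counts are per gene, transcripts with and without the hairpin cannot be told apart in the values that follow. These letters were not found in the transcripts of Slc11a2, Trf, Heph, Hmox1, Ireb2 or Aco1, which says nothing about other forms of the element.

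The totals lay between 16709201 and 17719366 counts per library. Sox2 was lower in both Sox2-KD libraries, at 320 and 283 TMM-normalized CPM (counts scaled to a common library size), than in control, at 412 and 529.7 CPM. Cdk9 was lower in both Cdk9-KD libraries, at 73.0 and 53.1 CPM against 109 and 129 CPM. Hnrnpk was at 62.7% of the control mean in replicate 1 of the hnRNPK-KD-labelled libraries but at 103% in replicate 2, so that directions drawn from that group rest on 1 library that shows the knockdown. Of 7 pluripotency markers (Pou5f1, Nanog, Esrrb, Zfp42, Klf4, Tfcp2l1 and Dppa5a), 0 were at 0 counts in any group, and their summed level was 6548 to 6833 CPM in control and 5778 to 6328 CPM in Sox2-KD. Pou5f1, Nanog and Esrrb lay below both controls in both Sox2-KD libraries, as did 25.2% of all genes. The other markers overlapped. In this comparison 0 of the 7 passed an adjusted p under 0.05 (edgeR) with an absolute log2FC over 0.6, beside 4.32% of all genes.

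Slc40a1 (ENSMUSG00000025993.10, chromosome 1, 45908068 to 45926523, − strand) was near the lower limit of detection in control ESCs and was many times more abundant in Sox2-KD. Control libraries held 15 and 19 counts, with exact 95% Poisson intervals of 8.40 to 24.7 and 11.4 to 29.7 that cover counting error only. Sox2-KD libraries held 217 and 202 counts (intervals 189 to 248 and 175 to 232). The hnRNPK-KD-labelled libraries held 13 and 24 counts, and Cdk9-KD libraries held 27 and 15. Both Sox2-KD libraries thus stood above the other 6, whose counting intervals overlapped one another.

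On the normalized scale, Slc40a1 was at 0.844 and 1.09 CPM in control, 11.9 and 11.5 CPM in Sox2-KD, 0.761 and 1.40 CPM in the hnRNPK-KD-labelled libraries, and 1.57 and 0.886 CPM in Cdk9-KD. The group means were 0.965 ± 0.172 CPM (SD, n = 2) in control and 11.7 ± 0.282 CPM (SD, n = 2) in Sox2-KD, a fitted 12.1-fold difference with a log2FC of 3.59 (SE 0.41). The Sox2-KD value was 3.43 (SE 0.41) on the log2 scale above the hnRNPK-KD-labelled libraries and 3.24 (SE 0.40) above Cdk9-KD. When each library was left out in turn, the log2FC against control stayed between 3.40 and 3.78. This range is part of the same description and adds no support, because the gene was chosen by its Sox2-KD values. The remaining groups did not separate from control by edgeR's quasi-likelihood test, with a log2FC of 0.16 (SE 0.44, 95% interval −0.82 to 1.14, adjusted p = 0.964) in the hnRNPK-KD-labelled libraries and of 0.35 (SE 0.44, 95% interval −0.62 to 1.32, adjusted p = 0.846) in Cdk9-KD.

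Ferroportin mRNA was scarce beside the storage and uptake genes in control ESCs. Per kilobase of the transcript with the longest coding sequence, control ESCs held 246 ± 28.7 CPM of Ftl1 (SD, n = 2), 236 ± 51.5 CPM of Fth1 and 181 ± 15.7 CPM of Tfrc. Ireb2 followed at 58.5 ± 1.70, Hmox1 at 40.2 ± 6, Aco1 at 26.1 ± 2.16, Slc11a2 at 23.1 ± 5.51 and Trf at 2.71 ± 0.653 CPM per kilobase. Slc40a1, at 0.286 ± 0.0511, and Heph, at 0.102 ± 0.0097 CPM per kilobase, closed the order. The storage and receptor transcripts were thus the most abundant and the export genes the least. The neighbours Ftl1 and Fth1 overlapped between their libraries, as did Aco1 and Slc11a2, and the other neighbours did not overlap. With the length of all exons in place of the transcript, Tfrc moved above Fth1 and Hmox1 above Ireb2. Among the genes tested, Slc40a1 stood at the 3.67th percentile of control levels per exon length and Heph at the 1.70th, whereas Ftl1, Tfrc and Fth1 stood at the 98.8th, 98.4th and 97.6th. In Sox2-KD, Slc40a1 was at 3.47 ± 0.0838 CPM per kilobase of coding transcript (SD, n = 2), above Trf at 1.63 ± 0.581 and below Aco1 at 21.9 ± 1.55. Per kilobase of all exons it was at 1.30 ± 0.0314, within the spread of Trf at 1.26 ± 0.450.

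**Figure D1:**
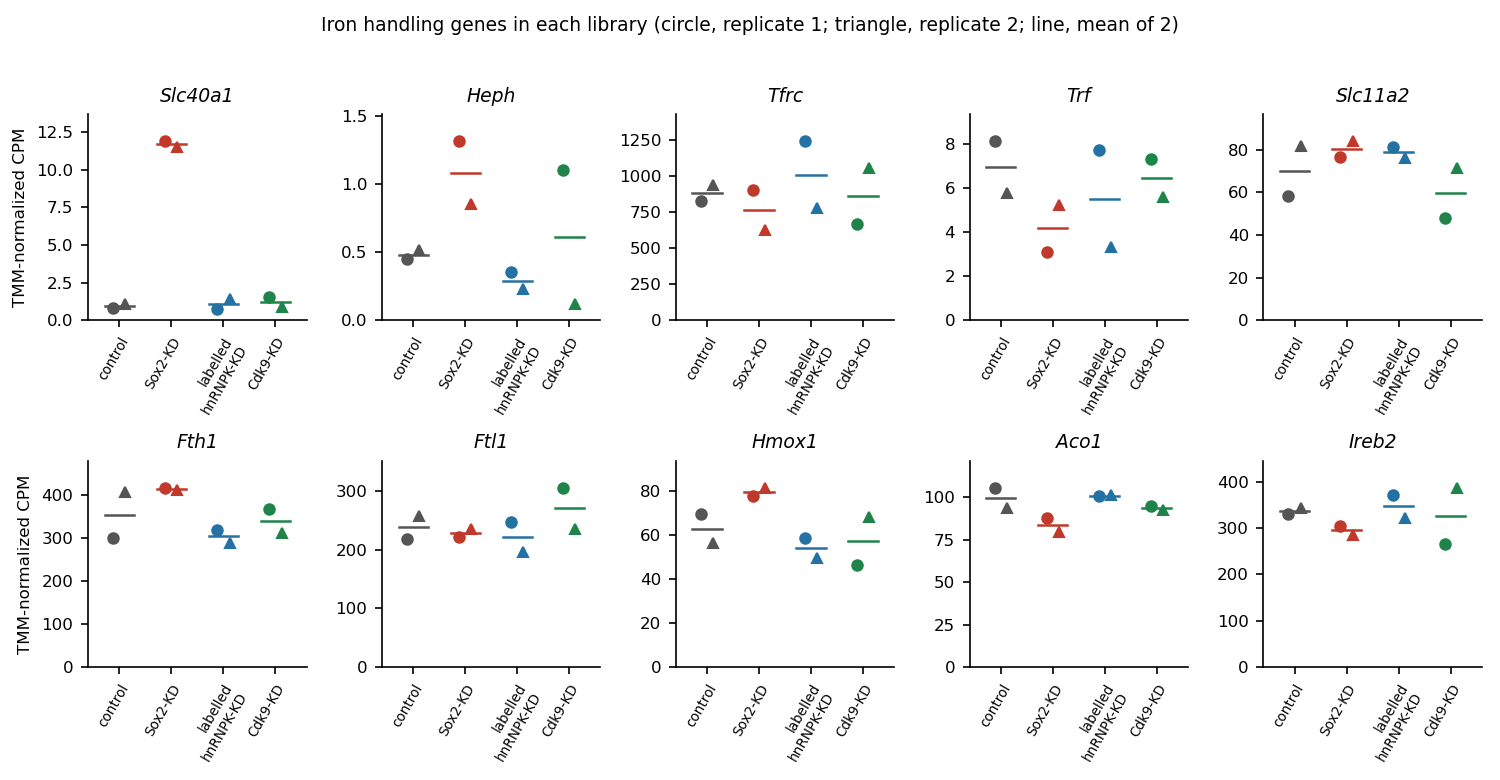
Level of each iron handling gene in every library, in TMM-normalized CPM on a linear axis that starts at 0, with circles for replicate 1, triangles for replicate 2 and a line for the mean of 2. In the Slc40a1 panel both Sox2-KD libraries lie at 11.5 and 11.9 CPM, and the other 6 lie at or below 1.57 CPM. The highest 2 of 8 values of Hmox1 (78.1 and 81.7 CPM) and the lowest 2 of Aco1 (88.1 and 79.6 CPM) are also those of Sox2-KD.

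Whether the partners of ferroportin moved with Sox2-KD was asked over 8 of the other 9 genes. Heph was left out because only 1 library outside Sox2-KD reached the filter's level of 0.568 CPM, so that it was tested only through the group in which it was high. Of the 8, 0 were called, meaning an absolute log2FC over 0.6 together with an adjusted p under 0.05, in Sox2-KD versus control, against 4.32% of all genes tested. At an unadjusted p under 0.05 the count was also 0, against 19.3% of all genes, and DESeq2 and the likelihood ratio test of edgeR called 0 of them. In 2 of the 8 (Fth1 and Hmox1) both Sox2-KD libraries lay above both controls, where 28.1% of all genes did, and in 3 (Trf, Aco1 and Ireb2) both lay below, where 25.2% did. A separation of the 2 groups was therefore about as frequent as in the whole table. The median log2FC of the 8 was −0.13, beside 0.02 for all genes, and their median absolute log2FC was 0.22, beside 0.28.

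**Figure D2:**
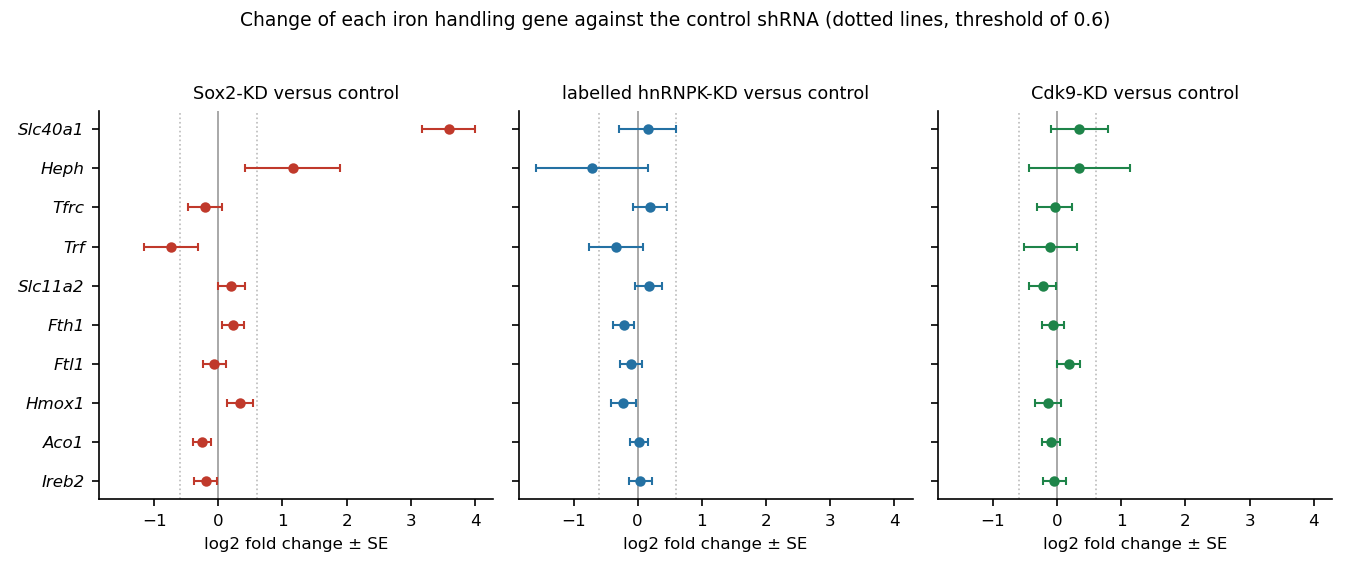
Fitted log2FC of each iron handling gene against control (point) with its SE (bar) for Sox2-KD, the hnRNPK-KD-labelled libraries and Cdk9-KD, with dotted lines at an absolute log2FC of 0.6. Slc40a1 stands at 3.59 in Sox2-KD and at 0.16 and 0.35 in the other 2 panels, and the wide bars of Heph and Trf go with low counts.

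Heph (ENSMUSG00000031209.14, chromosome X, 96455359 to 96574485, + strand), the ferroxidase partner of ferroportin, was counted few times in every group. It was counted 8 and 9 times in control, 24 and 15 times in Sox2-KD, 6 and 4 times in the hnRNPK-KD-labelled libraries, and 19 and 2 times in Cdk9-KD. Both Sox2-KD libraries exceeded both controls, but replicate 1 of Cdk9-KD lay between them. The fitted log2FC in Sox2-KD versus control was 1.16 (SE 0.74), given as a description without a test because the gene passed the filter through Sox2-KD. Heph shares 29 exonic bases with Hsf3 on the opposite strand, which had 3 to 12 counts.

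The uptake genes showed no change past the thresholds. Tfrc (ENSMUSG00000022797.16, chromosome 16, 32608920 to 32632794, + strand) was at 831 and 939 CPM in control, 907 and 624 CPM in Sox2-KD, 1243 and 776 CPM in the hnRNPK-KD-labelled libraries, and 669 and 1053 CPM in Cdk9-KD. Every knockdown group had a library on either side of a control library, and the log2FC in Sox2-KD was −0.21 (SE 0.27, 95% interval −0.80 to 0.38, adjusted p = 0.725, edgeR).

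Slc11a2 (ENSMUSG00000023030.16, chromosome 15, 100387898 to 100425072, − strand) was at 58.0 and 81.6 CPM in control, 76.4 and 84.0 CPM in Sox2-KD, 81.3 and 76.2 CPM in the hnRNPK-KD-labelled libraries, and 48.0 and 71.3 CPM in Cdk9-KD. Control and Sox2-KD overlapped, with a log2FC of 0.20 (SE 0.21, 95% interval −0.27 to 0.67, adjusted p = 0.662, edgeR). Slc11a2 shares 402 exonic bases with Gm5475 on the opposite strand, which held at most 3 counts.

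Trf (ENSMUSG00000032554.15, chromosome 9, 103204001 to 103230444, − strand), chiefly a liver product, was weakly expressed, at 8.15 and 5.78 CPM in control, 3.13 and 5.24 CPM in Sox2-KD, 7.73 and 3.31 CPM in the hnRNPK-KD-labelled libraries, and 7.35 and 5.61 CPM in Cdk9-KD. Both Sox2-KD libraries lay below both controls, by little in replicate 2. The log2FC in Sox2-KD versus control was −0.74 (SE 0.42, 95% interval −1.67 to 0.19, adjusted p = 0.385, edgeR). In GENCODE vM21, 2108 exonic bases of Trf lie also in Gm20425 on the same strand, a gene that was not among those counted.

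Ferritin mRNAs were abundant in every library and differed little between groups. Fth1 (ENSMUSG00000024661.7, chromosome 19, 9980598 to 9985098, + strand), the heavy chain that oxidizes iron for storage, was at 299 and 407.5 CPM in control, 416 and 411 CPM in Sox2-KD, 318 and 289 CPM in the hnRNPK-KD-labelled libraries, and 366 and 311 CPM in Cdk9-KD. Replicate 2 of control lay just under both Sox2-KD libraries and replicate 1 well under them, giving a log2FC of 0.23 (SE 0.17, 95% interval −0.14 to 0.60, adjusted p = 0.508, edgeR).

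Ftl1 (ENSMUSG00000050708.16, chromosome 7, 45457944 to 45459884, − strand), the light chain, was at 219 and 258 CPM in control, 222 and 235 CPM in Sox2-KD, 247 and 195 CPM in the hnRNPK-KD-labelled libraries, and 305.5 and 235 CPM in Cdk9-KD. Both Sox2-KD libraries lay inside the control range, with a log2FC of −0.06 (SE 0.18, 95% interval −0.45 to 0.33, adjusted p = 0.896, edgeR). The value is uncertain because 9 annotated loci match Ftl1 at 90% identity or more over at least 150 bases and together held 149% to 183% of its own counts. The largest, Ftl2-ps, matches at 98.7% identity and held 5724 to 9255 counts. Summed with these 9 loci, Ftl1 was at 632 ± 20.6 CPM (SD, n = 2) in control and 639 ± 19.0 CPM in Sox2-KD, and the log2FC turned from −0.06 to 0.02 (adjusted p = 0.972, edgeR).

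Hmox1 (ENSMUSG00000005413.8, chromosome 8, 75093621 to 75100589, + strand), which releases iron from heme and responds to oxidative stress, was at 69.7 and 56.4 CPM in control, 78.1 and 81.7 CPM in Sox2-KD, 58.6 and 49.6 CPM in the hnRNPK-KD-labelled libraries, and 46.3 and 68.2 CPM in Cdk9-KD. The Sox2-KD libraries held the 2 highest values of the 8. Their distance from control was a log2FC of 0.34 (SE 0.20, 95% interval −0.10 to 0.78, adjusted p = 0.394, edgeR).

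The genes of the regulatory proteins were slightly lower in Sox2-KD without passing the test. Aco1 (ENSMUSG00000028405.9, chromosome 4, 40143081 to 40198338, + strand), a cytosolic aconitase that becomes an IRE-binding protein when it loses its iron-sulfur cluster, was at 106 and 94.01 CPM in control, 88.1 and 79.6 CPM in Sox2-KD, 101 and 101.5 CPM in the hnRNPK-KD-labelled libraries, and 94.8 and 92.7 CPM in Cdk9-KD. Its 2 lowest values were the Sox2-KD libraries, and the log2FC against control was −0.25 (SE 0.14, 95% interval −0.56 to 0.05, adjusted p = 0.364, edgeR).

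Ireb2 (ENSMUSG00000032293.8, chromosome 9, 54863789 to 54912530, + strand), whose protein is degraded when iron is plentiful, was at 331 and 344.5 CPM in control, 305 and 285 CPM in Sox2-KD, 372 and 322 CPM in the hnRNPK-KD-labelled libraries, and 266 and 388 CPM in Cdk9-KD. Cdk9-KD libraries spanned the whole range of the 8. The log2FC in Sox2-KD versus control was −0.19 (SE 0.18, 95% interval −0.59 to 0.20, adjusted p = 0.611, edgeR).

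None of the iron handling genes was called in the remaining comparisons with control. In the hnRNPK-KD-labelled libraries, 0 of the 10 passed the thresholds in edgeR's quasi-likelihood test, where 0% of all genes did, 0 of the 10 had an unadjusted p under 0.05, and 0 were called by DESeq2. Heph was the only gene of the 10 whose libraries lay on 1 side of both controls (below, as for 18.7% of all genes), at a log2FC of −0.71 (SE 0.87, adjusted p = 0.907). In Cdk9-KD versus control, 0 of the 10 were called, against 0.139% of all genes, 0 had an unadjusted p under 0.05, DESeq2 called 0, and 0 had separate groups, against 39.2% of all genes. The largest absolute log2FC there were those of Slc40a1 and Heph (0.35 each). The median absolute log2FC of the 10 was 0.18 in the hnRNPK-KD-labelled libraries, beside 0.20 for all genes, and 0.12 in Cdk9-KD, beside 0.22.

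Comparisons between knockdowns, of which those with Sox2-KD share its libraries, came nearest to a call for Hmox1 and Fth1. In Sox2-KD versus the hnRNPK-KD-labelled libraries, 0 of 8 were called, against 5.90% of all genes, and 2 had an unadjusted p under 0.05, where 21.3% of all genes did. These were Hmox1, with a log2FC of 0.56 (SE 0.20, 95% interval 0.12 to 1.004, adjusted p = 0.130), and Fth1, with 0.45 (SE 0.17, 95% interval 0.08 to 0.82, adjusted p = 0.153, both edgeR). In Sox2-KD versus Cdk9-KD, 0 of 8 were called, against 7.33% of all genes, and Hmox1 alone had an unadjusted p under 0.05, where 21.7% of all genes did, with a log2FC of 0.48 (SE 0.20, adjusted p = 0.186, edgeR). Between the hnRNPK-KD-labelled libraries and Cdk9-KD, 0 of 10 were called, against 0% of all genes, and 0 had an unadjusted p under 0.05, while DESeq2 called 56 genes over the whole table and 0 of the 10.

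Across the 8 libraries the members varied together only in part, as a description of values that share libraries and groups. Pearson's r of log2 CPM with Slc40a1 was −0.825 for Aco1, 0.715 for Fth1, 0.690 for Heph and 0.602 for Hmox1, each over 8 libraries in which 2 Sox2-KD libraries carried most of the range. Tfrc and Ireb2, both low in replicate 1 and high in replicate 2 of Cdk9-KD, had an r of 0.879. Among 12329 genes with an average log2 CPM over 1, the profiles most like that of Slc40a1 were those of Neurl1a (r = 0.979), Slc46a1 (0.971), Nckap1l (0.970), Cdc42bpb (0.968) and Arsb (0.966), also over 8 libraries. Slc46a1, a transporter of folate and heme, belonged to the wider list of iron genes.

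This wider list held 86 genes of iron uptake, storage, IRP regulation, other IRE mRNAs, systemic iron sensing, mitochondrial iron and iron-sulfur assembly, heme synthesis, heme breakdown and transport, and NRF2 and BACH1 targets, of which 78 were tested. In Sox2-KD versus control, 3 of the 78 were called higher (3.85%) and 0 lower, beside 2.63% higher and 1.69% lower among all genes. The median log2FC of the 78 was 0.03, beside 0.02 for all genes. The calls came from uptake and reductases (2 of 8) and from heme breakdown and transport (1 of 8), with 0 of 25 in mitochondrial iron and iron-sulfur assembly, 0 of 8 in heme synthesis, 0 of 10 in NRF2 and BACH1 targets, 0 of 6 in systemic sensing, 0 of 5 in storage and chaperones, 0 of 4 in IRP regulation and 0 of 4 in other IRE mRNAs. The list as a whole was therefore close to the background in number and in median.

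**Figure D3:**
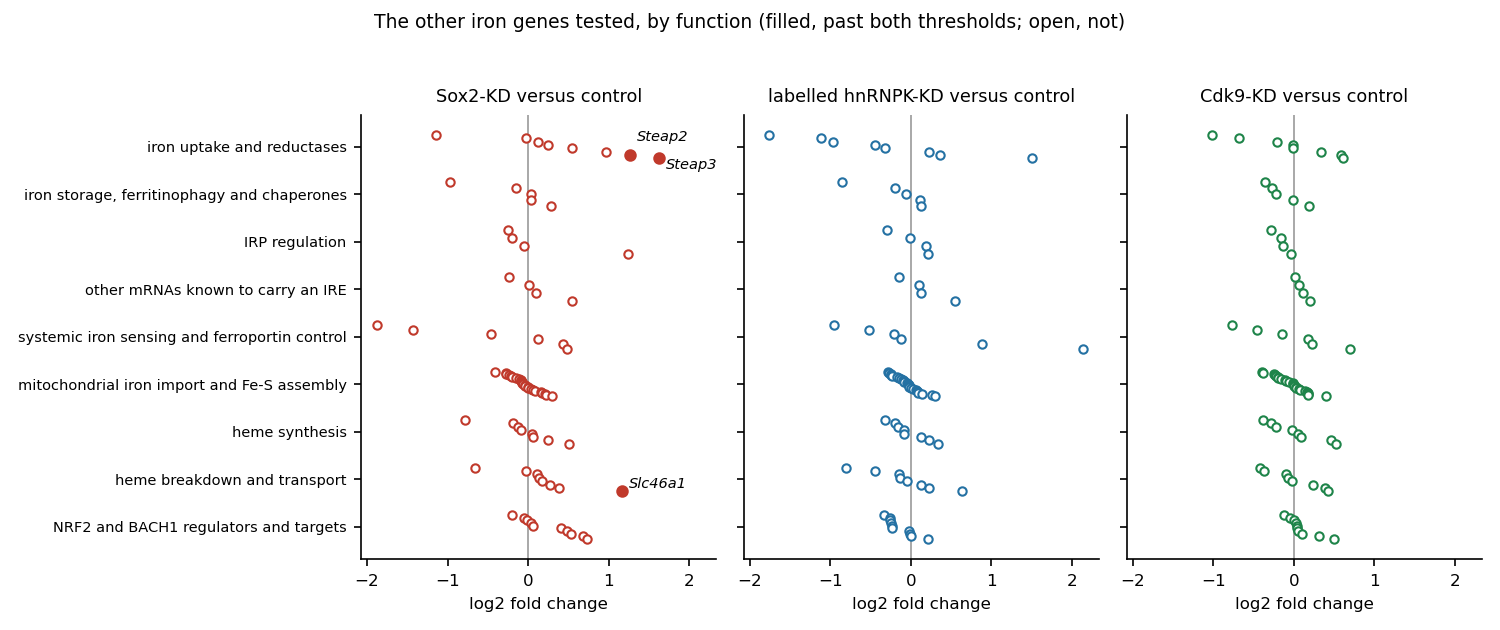
Fitted log2FC against control of the 78 other iron genes tested, by function, for Sox2-KD, the hnRNPK-KD-labelled libraries and Cdk9-KD, with filled points for genes past both thresholds. Steap3, Steap2 and Slc46a1 are the filled points, all in Sox2-KD.

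The genes called in uptake encode metalloreductases, which reduce ferric iron so that it can cross a membrane. Steap3, the endosomal ferrireductase of the transferrin cycle, was at 12.3 and 15.0 CPM in control, 31.8 and 52.5 CPM in Sox2-KD, 4.57 and 9.36 CPM in the hnRNPK-KD-labelled libraries, and 5.60 and 7.92 CPM in Cdk9-KD. Both Sox2-KD libraries lay above the other 6 and the other knockdowns lay below control, with a log2FC in Sox2-KD versus control of 1.63 (SE 0.34, adjusted p = 0.0259, edgeR).

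Steap2, a related reductase, was at 8.27 and 7.09 CPM in control, 17.2 and 19.8 CPM in Sox2-KD, 9.54 and 10.2 CPM in the hnRNPK-KD-labelled libraries, and 8.05 and 15.1 CPM in Cdk9-KD, with a log2FC in Sox2-KD of 1.27 (SE 0.29, adjusted p = 0.0382, edgeR). Its Sox2-KD libraries were the highest 2 of 8, followed by replicate 2 of Cdk9-KD. Slc46a1 was at 10.5 and 9.04 CPM in control, 21.1 and 22.8 CPM in Sox2-KD, 9.60 and 11.7 CPM in the hnRNPK-KD-labelled libraries, and 10.97 and 8.15 CPM in Cdk9-KD, with a log2FC in Sox2-KD of 1.17 (SE 0.23, adjusted p = 0.0209, edgeR). Control and both other knockdowns overlapped for Slc46a1. Without control replicate 1, control replicate 2 or Sox2-KD replicate 2, 0 of the 78 genes were called, so that these 3 calls rest on few libraries, and DESeq2 called 7 of the 78, beside 6.23% of all genes.

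**Figure D4:**
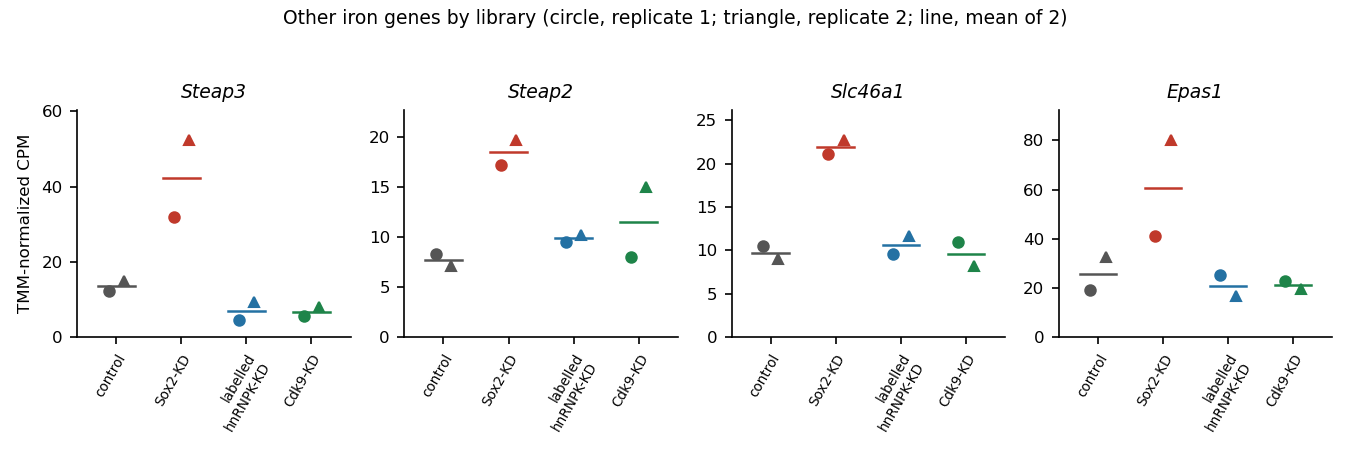
Levels of Steap3, Steap2, Slc46a1 and Epas1 in every library, in TMM-normalized CPM on a linear axis from 0, with circles for replicate 1, triangles for replicate 2 and a line for the mean of 2. Both Sox2-KD libraries are the highest 2 of 8 in each panel, and in Steap3 and Epas1 they lie apart from each other (31.8 and 52.5 CPM, and 41.1 and 80.3 CPM).

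In the other comparisons with control 0 of the 78 were called by edgeR's quasi-likelihood test, with 5 at an unadjusted p under 0.05 in the hnRNPK-KD-labelled libraries, beside 8.03% of all genes, where DESeq2 called 1, and 4 in Cdk9-KD, beside 10.4% of all genes. Against the hnRNPK-KD-labelled libraries, Sox2-KD had 5 genes higher and 2 lower (8.97% of 78, beside 5.90% of all genes), and against Cdk9-KD 5 higher and 0 lower (6.41%, beside 7.33%). Without Sox2-KD replicate 2, and likewise without replicate 2 of the other group, 1 gene was called in each, and against Cdk9-KD 3 were called without Cdk9-KD replicate 1, with no filter or with only the 4 libraries compared. Steap3, Slc46a1 and Epas1, the hypoxia-inducible factor whose mRNA is a known IRE carrier, were higher in both. Epas1 was at 19.1 and 32.4 CPM in control and was not called in Sox2-KD versus control (log2FC 1.24, SE 0.34, adjusted p = 0.0665, edgeR). The hairpin pattern given above was not found in its coding transcripts, which says nothing about other forms of the element. The 8 genes not tested (Steap4, Slc39a8, Lcn2, Ftmt, Hamp, Hamp2, Tmprss6 and Cp) held at most 9 counts in any library. They include hepcidin (Hamp), the hormone that removes ferroportin from the membrane, and ceruloplasmin (Cp), a further ferroxidase.

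Some markers of other cell types differed between Sox2-KD and control beside Slc40a1. The summed level of 12 primitive or visceral endoderm markers was 14.2 to 15.6 CPM in control and 50.8 to 86.4 CPM in Sox2-KD. Dab2, an endocytic adaptor, supplied most of it, at 0.675 and 0.858 CPM in control and 35.0 and 54.1 CPM in Sox2-KD. It was the only marker called among the 5 that passed the filter without their Sox2-KD counts, beside 4.32% of all genes. Gata6 was counted 4 and 5 times in control and 49 and 68 times in Sox2-KD, Hnf4a was at 9.67 in both controls and at 6.75 and 21.9 CPM in Sox2-KD, and Afp and Ttr held at most 1 count in these libraries. The sum without Dab2 was 13.5 to 14.8 CPM in control and 15.8 to 32.2 CPM in Sox2-KD. It was as high in the hnRNPK-KD-labelled libraries, at 17.9 to 32.3 CPM, and was 14.3 to 18.7 CPM in Cdk9-KD. Hnf4a was at 13.1 and 29.5 CPM in the hnRNPK-KD-labelled libraries. Dab2 itself stayed at or below 0.700 CPM in both of these groups.

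The 8 trophectoderm markers summed to 88.9 to 101 CPM in control and 185 to 316 CPM in Sox2-KD, and the keratins Krt8 and Krt18 made up 138 and 264 CPM of the latter. Of the 5 that passed the filter without their Sox2-KD counts, Eomes, Krt8 and Krt18 were called higher, beside 2.63% of all genes. Eomes was not particular to Sox2-KD. It was at 3.82 and 2.58 CPM in control, 8.94 and 9.23 CPM in Sox2-KD and 8.08 and 7.91 CPM in the hnRNPK-KD-labelled libraries. In Cdk9-KD it was at 19.4 and 14.2 CPM and was called (log2FC 2.39, adjusted p = 0.0191, edgeR). The trophectoderm factors Cdx2 and Tfap2c were lower in both Sox2-KD libraries (6.09 and 6.21 against 19.7 and 35.1 CPM, and 28.7 and 32.5 against 43.4 and 43.0 CPM) without passing the test (adjusted p = 0.0521 and 0.398, edgeR), and the sum without the keratins was 67.3 to 81.0 CPM in control and 46.4 to 52.1 CPM in Sox2-KD. Tfap2c was lower still in Cdk9-KD, at 13.1 and 7.80 CPM (log2FC −2.04, adjusted p = 0.0416, edgeR). The sum without the keratins was 51.4 to 55.25 CPM in Cdk9-KD. Both lists had their higher sum in Sox2-KD replicate 2.

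Macrophages and erythroid cells are cell types rich in ferroportin. The 6 macrophage markers summed to 13.7 to 16.5 CPM in control and 17.4 to 18.2 CPM in Sox2-KD (0 of 2 tested called, beside 4.32% of all genes). Cd68 made up most of this sum and overlapped between the groups. Spi1 was at 0.619 and 1.37 CPM in control and 2.91 and 4.33 CPM in Sox2-KD (adjusted p = 0.112, edgeR). The 10 erythroid markers summed to 1.37 to 1.57 and 1.48 to 2.45 CPM (5 of 10 at 0 counts in Sox2-KD). Without Klf1, which reached the filter's level in only 1 library outside Sox2-KD, 0 of 2 were called. Gata1 was counted 7 and 4 times in control and 12 and 21 times in Sox2-KD (adjusted p = 0.193, edgeR), and Alas2 overlapped. The 6 fibroblast markers summed to 4.98 to 6.19 and 4.56 to 5.16 CPM, with 0 of 3 called among those that passed the filter without their Sox2-KD counts. Lum, which passed through them, was counted 0 and 1 times in control and 23 and 13 times in Sox2-KD. The part of other cell types in the Slc40a1 difference was not tested, and in bulk libraries more cells of a type and more RNA per cell cannot be told apart.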

How the data were processed

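RNA-seq was done on polyadenylated RNA of E14 ESCs in 4 groups of 2 libraries, read as 150-base pairs. The authors trimmed adapters and filtered read pairs with Trimmomatic, aligned the rest with STAR and counted reads per gene with featureCounts 2.0.1 on GENCODE vM23 (mm10, the same assembly as GRCm38), and deposited raw counts, neither normalized nor pooled. The submitters' processing notes give STAR 2.7.9a. How strand and shared reads were handled is not given in the sources used here, so that Ftl1 and genes with antisense partners are uncertain.

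Gene symbols, positions and transcripts came from GENCODE vM21, which gave a symbol to 55154 of 55335 IDs. All 8 count columns were matched to a library by name. Genes passing filterByExpr (minimum count 10, minimum total 15) were tested with edgeR 4.0.16 in R 4.3.3 (TMM factors, group term, quasi-likelihood test, Benjamini-Hochberg adjustment over 16504 genes, all 8 libraries in 1 fit). Genes with an absolute log2FC over 0.6 and an adjusted p under 0.05 were called. CPM are counts over library total times TMM factor. The SE is the absolute log2FC over the square root of F, and 95% intervals use the t distribution with the fit's degrees of freedom. Totals of 16709201 to 17719366 counts leave genes with few counts a wide counting error. The p-values rest on the spread between replicate libraries, 2 per group, pooled over the 4 groups. Each gene's spread was drawn towards a trend over all genes. The script was tested on simulated data with known changes.

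The 10 genes, the wider iron lists and the marker lists were chosen with earlier results of these data known. All 10 genes are named, and of the wider list those called, at most 10 per comparison with the largest absolute log2FC. Skp1 of the wider list was not matched by symbol and was not analysed here, and Hjv and Fam132b were analysed under the symbols Hfe2 and Erfe. Near-identical copies were found with blastn 2.17.0. Alternatives were DESeq2 1.42.0, the likelihood ratio test, DESeq2-type size factors or library totals for scaling, no filter, only the 4 libraries compared, the replicate number as a block, and leaving out each library in turn. Adding the copies of Ftl1 and the alternatives for the wider list were chosen after seeing the data. Replicates within each group differed by far more than counting noise (chi-square per gene 16.4 to 28.9), so that none was a repeated library. Plots were made with matplotlib 3.10.9 (Python 3.11.15).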

Additional observations from a re-analysis of the deposited data

Results flagged for a closer look

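Among the wider list of iron genes, 12 differences between knockdowns passed edgeR's quasi-likelihood test of the difference itself (adjusted p under 0.05 and absolute log2FC over 0.6), and they are given as values. Against the hnRNPK-KD-labelled libraries, Steap3 was higher in Sox2-KD by a log2FC of 2.60 (adjusted p = 0.00473, edgeR), Epas1 by 1.54 (adjusted p = 0.028, edgeR) and Slc46a1 by 1.04 (adjusted p = 0.0283, edgeR). The NRF2 targets Me1, which makes NADPH in the cytosol, and Nqo1, a quinone reductase, were higher by 1.07 (adjusted p = 0.0284, edgeR) and 0.92 (adjusted p = 0.047, edgeR). Me1 was at 107.5 and 178 CPM in Sox2-KD and at 68.9 and 67.3 CPM in the hnRNPK-KD-labelled libraries, and Nqo1 at 68.5 and 58.8 against 40.8 and 26.4 CPM.

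Lower in Sox2-KD than in the hnRNPK-KD-labelled libraries were Slc39a14, an importer of iron not bound to transferrin, with a log2FC of −0.95 (17.1 and 15.8 against 32.2 and 31.3 CPM, with 11.9 and 10.5 CPM in control, adjusted p = 0.0461, edgeR), and Bmp2, a ligand of the pathway that induces hepcidin, with −3.57 (adjusted p = 0.0108, edgeR). Bmp2 was counted 6 times and 1 time in Sox2-KD, 45 and 37 times in the hnRNPK-KD-labelled libraries, and 11 and 8 times in control. Without Sox2-KD replicate 2 or hnRNPK-KD replicate 2, 1 gene of the list was called in this comparison, and 4 were without hnRNPK-KD replicate 1. Slc39a14 lost its call with library totals (adjusted p = 0.0734, edgeR), with no filter (adjusted p = 0.0637, edgeR) and without 1 library in 6 of 8 cases, and Nqo1 lost its call with no filter (adjusted p = 0.0754, edgeR) and in 4 of 8.

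Between Sox2-KD and Cdk9-KD, Steap3 was higher in Sox2-KD by 2.64 (adjusted p = 0.00275, edgeR), Epas1 by 1.52 (adjusted p = 0.0231, edgeR) and Slc46a1 by 1.199 (adjusted p = 0.0124, edgeR). Exoc6, part of the exocyst, was higher by 0.80 (27.8 and 24.6 against 13.4 and 16.6 CPM, with 24.0 and 24.3 CPM in control, adjusted p = 0.0466, edgeR). Nfu1, an iron-sulfur scaffold, was higher by 0.69 (101 and 101 against 70.7 and 54.9 CPM, with 75.0 and 89.9 CPM in control, adjusted p = 0.0332, edgeR). Without Sox2-KD replicate 2 or Cdk9-KD replicate 2, 1 gene of the list was called in this comparison, and 3 were without Cdk9-KD replicate 1, with no filter or with only the 4 libraries compared. Exoc6 lost its call with no filter (adjusted p = 0.0839, edgeR), with only these 4 libraries (adjusted p = 0.0596, edgeR), with the replicate number as a block (adjusted p = 0.0593, edgeR) and without 1 library in 6 of 8 cases. Nfu1 lost its call with no filter (adjusted p = 0.0663, edgeR), with only the 4 libraries (adjusted p = 0.0502, edgeR) and in 3 of 8.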

How the results depend on the processing

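The finding that 0 of the iron handling genes tested were called held under every alternative run in all 6 comparisons. Slc40a1, which was chosen by its level in Sox2-KD, and Heph, which passed the filter through Sox2-KD, were not tested in comparisons with that group. The smallest adjusted p of any of the others under any alternative was 0.0571 (Hmox1, Sox2-KD versus the hnRNPK-KD-labelled libraries, without Cdk9-KD replicate 1). Over all genes, the likelihood ratio test called 1350 in Sox2-KD, 87 in the hnRNPK-KD-labelled libraries and 279 in Cdk9-KD versus control, and 1690, 1869 and 67 in Sox2-KD versus the hnRNPK-KD-labelled libraries, Sox2-KD versus Cdk9-KD and the hnRNPK-KD-labelled libraries versus Cdk9-KD, where the quasi-likelihood test called 713, 0, 23, 974, 1210 and 0. DESeq2 called 83 in the hnRNPK-KD-labelled libraries and 222 in Cdk9-KD versus control and 56 between these 2, and no filter gave 1 in the hnRNPK-KD-labelled libraries versus control. Leaving out 1 library gave 144 to 840, 0 to 1 and 0 to 33 calls versus control in the same order, and 90 to 1100, 337 to 1286 and 0 to 6 between knockdowns, lowest without Sox2-KD replicate 2 where Sox2-KD was compared. The replicate numbers did not pair the samples (correlations of replicate differences −0.223 to 0.21). With the replicate number as a block, Cdk9-KD versus control had 15 calls, Exoc6 lost its call (adjusted p = 0.0593, edgeR), and the members tested kept 0 calls. The cause of these differences was not tested. Of the wider list, DESeq2 and the likelihood ratio test each called 7 in Sox2-KD versus control. Steap2 missed the threshold without the filter (log2FC 1.23, adjusted p = 0.0543, edgeR).

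The sign of 3 member values close to 0 changed in another setting. Ftl1 in Sox2-KD versus control was 0.0108 with library totals and 0.0156 with its copies added, Aco1 in the hnRNPK-KD-labelled libraries versus control was −0.0234 with library totals and −0.0032 with only the 4 libraries compared, and Slc11a2 in Sox2-KD versus the hnRNPK-KD-labelled libraries was −0.0050 with no filter. Leaving out each library in turn changed the sign of 32 log2FC, none of them called. In Sox2-KD versus control these were Ftl1 −0.19 to 0.0577, Slc11a2 −0.0421 to 0.46 and Tfrc −0.51 to 0.0329. In the hnRNPK-KD-labelled libraries versus control these were Aco1 −0.0772 to 0.0825, Fth1 −0.45 to 0.0091, Ftl1 −0.30 to 0.0283, Ireb2 −0.0772 to 0.12, Slc11a2 −0.0732 to 0.43, Slc40a1 −0.36 to 0.52, Tfrc −0.20 to 0.47 and Trf −1.08 to 0.13. In Cdk9-KD versus control these were Fth1 −0.31 to 0.15, Ftl1 −0.0522 to 0.36, Heph −1.997 to 1.19, Hmox1 −0.45 to 0.0801, Ireb2 −0.34 to 0.17, Slc11a2 −0.54 to 0.0116, Slc40a1 −0.15 to 0.70, Tfrc −0.40 to 0.22 and Trf −0.36 to 0.13. In Sox2-KD versus the hnRNPK-KD-labelled libraries these were Ftl1 −0.10 to 0.23, Slc11a2 −0.045 to 0.0819 and Trf −0.87 to 0.33. In Sox2-KD versus Cdk9-KD these were Heph −0.036 to 3.15, Ireb2 −0.37 to 0.14 and Tfrc −0.47 to 0.18. In the hnRNPK-KD-labelled libraries versus Cdk9-KD these were Heph −1.90 to 1.27, Hmox1 −0.32 to 0.22, Ireb2 −0.14 to 0.38, Slc40a1 −0.68 to 0.30, Tfrc −0.13 to 0.59 and Trf −0.94 to 0.26. The depth leaves Slc40a1 outside Sox2-KD and Heph in all groups at few counts, so that small changes of these genes could not be seen.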
